A study of Mus musculus with 37 samples.

Results

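Tpbg, Ppfia3, Lad1, Etnk2, Slc6a12, Cd69 and Nr4a3 are 7 genes that were picked because LPS raised them and IL-10 lowered them again in myeloid cells. They are 7 of 6509 genes in the copy of the deposited transcript table that was read, and 16 of its 16993 transcripts carry their names. That copy ended in a broken line and held part of the transcriptome. Shares and ranks below are among these genes only, and a sum covers only the transcripts held. A gene's value is the sum of its transcripts. The members were chosen by their group values with LPS, without LPS and with both agents, so those values are given as a description and carry no test. What the choice did not use are the response to IL-10 without LPS, the behaviour of single transcripts, the promoter sequences and the related genes.

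The study compared how 5 kinds of mouse myeloid cell (strain C57Bl6cJ) respond to lipopolysaccharide (LPS, endotoxin of Gram-negative bacteria) and to the anti-inflammatory cytokine IL-10. Mast cells, macrophages, neutrophils and dendritic cells of the spleen (sDCs) each had an untreated group, an IL-10 group, an LPS group and a group with IL-10 and LPS, and eosinophils had the untreated and LPS groups. IL-10 was used at 100 ng/ml for 4 h and LPS at 100 ng/ml for the next 4 h. The 18 groups hold 36 libraries, 2 per group, made from independent mice, and the table gives 1 mean per group, so no value below has an SD, a replicate check or a test. Macrophages were adherent peritoneal cells elicited with thioglycollate, and replicate 1 of their untreated and IL-10 groups is a re-analysis of libraries made for earlier work. Neutrophils came from bone marrow pooled over mice and were kept overnight in GM-CSF, sDCs were enriched from spleen with a magnetic kit, and mast cells and eosinophils were grown from bone marrow. By the treatment scheme the groups without LPS were harvested before the LPS step, so LPS and the longer culture cannot be told apart.

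LPS is sensed by Toll-like receptor TLR4, which switches on the factors NF-kB, AP-1 and the IRFs and with them cytokine and chemokine genes. IL-10 acts through STAT3 and restrains a subset of these LPS-induced genes, which the study calls the anti-inflammatory response (AIR). The 7 genes are not cytokines. Nr4a3 encodes an orphan nuclear receptor of the immediate early type, Cd69 a C-type lectin that marks freshly activated leukocytes, Tpbg a leucine-rich repeat glycoprotein of the cell surface and Lad1 the anchoring filament protein ladinin. Slc6a12 encodes a transporter of betaine and GABA, Etnk2 a kinase that starts the ethanolamine branch of phospholipid synthesis, and Ppfia3 a scaffold protein of the liprin family known from presynaptic terminals.

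The sequences upstream of 3 of the genes are shown because they held the most motif matches and because Cd69, Etnk2 and Nr4a3 stood apart in their levels. Each runs 5′ to 3′ along the gene's own strand over the 250 bases that end just before the annotated start in NCBIM37 (mm9), and capitals mark motif matches. Motifs were searched on both strands in windows of 300 bases, from 250 before the start to 50 after it.
Cd69, chr6:129225388-129225637, minus strand: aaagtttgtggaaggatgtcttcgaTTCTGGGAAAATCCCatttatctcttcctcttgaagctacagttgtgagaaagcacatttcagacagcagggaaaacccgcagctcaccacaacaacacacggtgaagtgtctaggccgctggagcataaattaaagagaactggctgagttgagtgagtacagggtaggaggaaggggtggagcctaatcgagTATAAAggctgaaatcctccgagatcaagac
Etnk2, chr1:135259899-135260148, plus strand: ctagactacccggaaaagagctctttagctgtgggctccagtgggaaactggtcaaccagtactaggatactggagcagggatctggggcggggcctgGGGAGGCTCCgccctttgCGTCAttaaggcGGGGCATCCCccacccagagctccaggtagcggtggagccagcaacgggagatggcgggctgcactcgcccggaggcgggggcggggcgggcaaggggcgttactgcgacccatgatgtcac
Nr4a3, chr4:48057775-48058024, plus strand: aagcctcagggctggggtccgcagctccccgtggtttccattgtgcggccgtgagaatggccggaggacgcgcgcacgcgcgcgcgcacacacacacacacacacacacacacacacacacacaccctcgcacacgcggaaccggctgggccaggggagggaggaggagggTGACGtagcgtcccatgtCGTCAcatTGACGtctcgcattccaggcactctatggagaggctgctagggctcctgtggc
In Cd69 the capitals are a STAT site (TTCNNNGAA) at -225 to -217 that overlaps an NF-kB match at -220 to -211, and a TATA box (TATAAA) at -31. In Etnk2 they are NF-kB matches at -152 and -122 with a short CRE match (TGACG), here on the other strand, between them. In Nr4a3 they are 3 short CRE matches, the core of sites for cAMP-responsive factors, between -79 and -49, and a further match lies at base 6 of the transcript, outside the stretch shown. A match is a run of letters, not a bound site.

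Over the 7 windows, an NF-kB match was present in 4 (Tpbg, Ppfia3, Etnk2 and Cd69), and 9.82% of the 15557 distinct windows of the table's transcripts held one. GC content was 65.7% in Tpbg, 72.3% in Ppfia3, 65.3% in Etnk2 and 47.7% in Cd69. In the windows without an NF-kB match it was 60.3% (Lad1), 52.7% (Slc6a12) and 65% (Nr4a3). The share over all windows was not matched for GC content or transcript type. The 7 windows lie at starts of coding transcripts, while the 15557 also take in starts of non-coding ones. The short CRE letters were present in Etnk2 and Nr4a3 (28.1% of all windows), a STAT site in Cd69 (7.64%) and a TATA box in Cd69 (8.89%). No window of the 7 held an AP-1 site (TGANTCA, 5.95% of all windows), the full CRE (TGACGTCA, 2.92%), an ISRE core (3.92%) or the NBRE bound by Nr4a receptors (AAAGGTCA, 1.14%). The windows of Lad1 and Slc6a12 had no match to any of the motifs. The windows also differed in CpG content. The ratio of observed to expected CpG was highest in Nr4a3 (0.95) and lowest in Slc6a12 (0.25) and Cd69 (0.41), against a median of 0.68 over all windows. The Ppfia3 window belongs to a coding transcript that is not among the table's Ppfia3 rows, and the annotated Tpbg gene begins upstream of its window, in another transcript. Each window covers the start of a single transcript. The transcripts Slc6a12-001 and Nr4a3-004 start elsewhere, at 121293094 and 48061986, and their starts are not among the 7 windows.

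**Figure D1:**
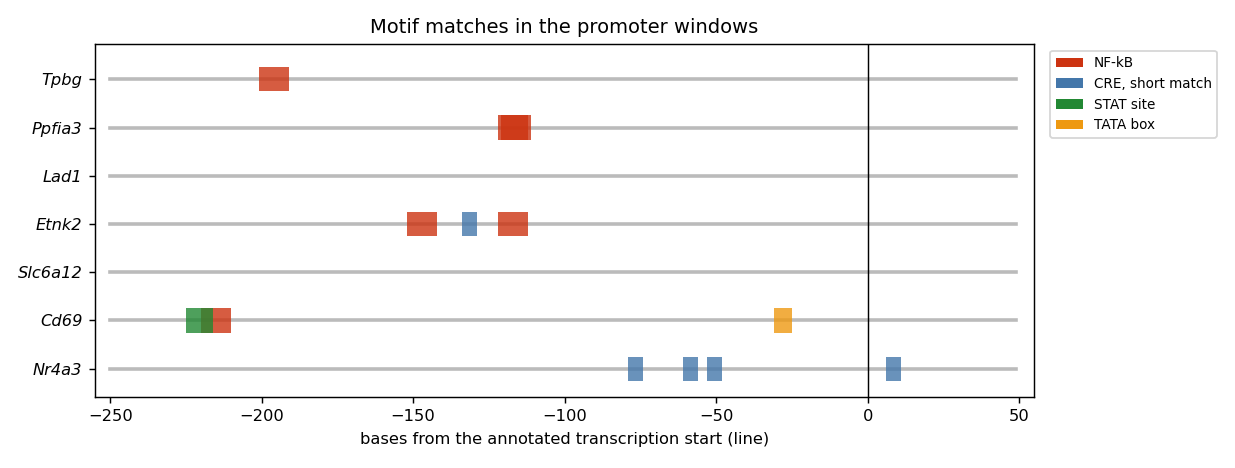
Motif matches in the promoter windows of the 7 genes. The x axis is the distance in bases from the annotated transcription start (vertical line), each grey line is 1 window, and coloured blocks are matches. Blocks lie in 5 of the 7 windows, and Lad1 and Slc6a12 have none.

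Across the 18 groups the LPS groups stood above the untreated groups of the same cell type for nearly every gene. In macrophages 7 of 7 were at least 2-fold higher with LPS, where 12.8% of all 6064 genes kept there were and 14.8% were at least 2-fold lower. A gene was kept in a cell type if a group mean reached 10, and fold changes were taken on log2(value + 1), which understates the change of low genes. Neutrophils also had 7 of 7, where 8.71% of all genes were higher and 7.9% lower. For sDCs it was 6 of 7 (9.04% higher and 11.5% lower among all genes). Mast cells had 6 of the 6 members kept (4.76% and 5.46%), and eosinophils had 5 of 6 (2.16% and 0.702%). No member was at least 2-fold lower with LPS in any cell type. Tpbg, Lad1, Slc6a12 and Cd69 were higher in all 5 cell types, as were 38 of the 5167 genes kept in all 5 (0.735%). Since these contrasts chose the genes, the shares describe the choice. Nr4a3 in sDCs and Ppfia3 in eosinophils were the exceptions, and Etnk2 was listed at 0 in every mast cell and eosinophil group.

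With IL-10 before LPS, 7 of 7 were at least 2-fold below the LPS group in macrophages (4.62% of all genes) and 7 of 7 in neutrophils (3.88%). Mast cells had 5 of the 6 kept (4.66%) and sDCs had 4 of 7 (2.08%). In neutrophils some markers of other cells followed the same course: Emr1, a macrophage marker, was 4346 untreated, 14667.5 with LPS and 5157.5 with both, and Xcr1, a dendritic cell marker, was 11.5, 60 and 21.5. Of the other macrophage markers there, Cd68 was 2788, 3140 and 4387.5, Mrc1 454.5, 124.5 and 613, and Itgam, which neutrophils also express, 136889, 26225 and 36909.5. The other dendritic cell markers there did not rise 2-fold with LPS: Itgax was 3094.5, 3504.5 and 1769 and Clec9a 100, 103.5 and 60. The part of such cells in the neutrophil values was not tested. Each member so lowered was also a member raised by LPS in that cell type, so the AIR counts were the same, against 2.31% of all genes in macrophages, 2.59% in neutrophils, 1.48% in mast cells and 1.09% in sDCs. Among only the genes that LPS raised, IL-10 lowered 18.1% in macrophages, 29.7% in neutrophils, 31.1% in mast cells and 12.1% in sDCs. Tpbg and Ppfia3 were AIR genes in all 4 cell types, a pattern met by 6 of the 5357 genes kept in all 4 (0.112%), the others being Ccl17, Il12b, Lta and I830012O16Rik. Lad1, Slc6a12, Cd69 and Nr4a3 missed it in 1 cell type each, and 3 or more cell types were reached by 22 genes (0.411%). The value nearest to the 2-fold line on its inner side was Tpbg in macrophages, with a log2 change of -1.01, and on the outer side Lad1 in sDCs, with -0.98.

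The median log2 change of the members with LPS was highest in macrophages (4.52) and neutrophils (4.40), followed by mast cells (3.11), eosinophils (2.57) and sDCs (2.44). Without the members listed at 0 in an untreated group it was 4.51 in macrophages (6 members) and 2.75 in mast cells (4 members). Over all genes kept the median lay between -0.15 (macrophages) and -0.02 (eosinophils). With IL-10 and LPS against LPS, the median was -2.05 in both macrophages and neutrophils, -1.68 in mast cells and -1.08 in sDCs (-2.00 in macrophages without Etnk2, which was listed at 0 with both agents), and that of all genes was between -0.03 and 0.04. In no cell type did the median return to the untreated level: the median log2 change of the group with both agents against untreated was 2.43 in macrophages, 2.03 in neutrophils, 1.34 in mast cells and 1.63 in sDCs.

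**Figure D2:**
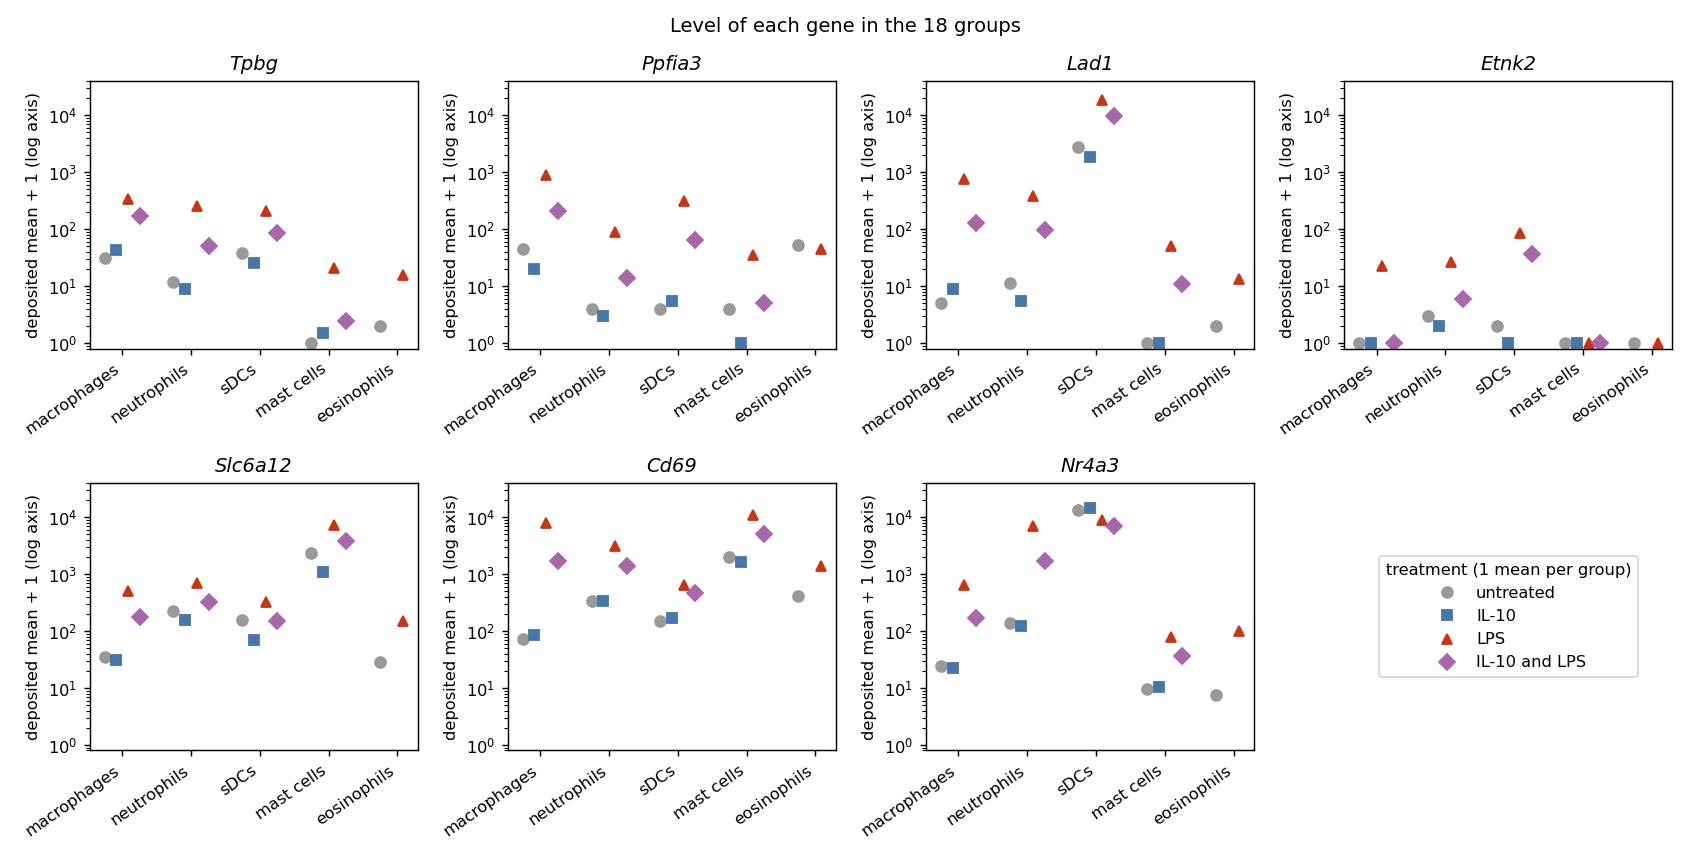
Deposited mean plus 1 (log axis) of each gene in the 18 groups, by cell type. Grey circles are untreated, blue squares IL-10, red triangles LPS and purple diamonds IL-10 and LPS, each 1 mean of 2 libraries without an error. Red triangles stand above grey circles except for Nr4a3 in sDCs (8993.5 against 13405.5), Ppfia3 in eosinophils (45 against 53) and Etnk2 where it was listed at 0.

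Nr4a3, on chromosome 4 (48058025 to 48099319, plus strand), encodes a receptor that works as a transcription factor and needs no ligand. In macrophages its value was 23 untreated, 21.5 with IL-10, 644.5 with LPS and 167.5 with both. In neutrophils the values were 135, 121.5, 7076 and 1710 in the same order. In both cell types the IL-10 group lay at the untreated level and the group with both agents was at 26% and 24.2% of the LPS level. In mast cells the values were 8.5, 9.5, 78 and 35, where the fall with IL-10 came from 1 of its transcripts, Nr4a3-001, and in eosinophils 6.5 untreated and 99.5 with LPS.

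In sDCs Nr4a3 went the other way. It was 13405.5 untreated, 14144 with IL-10, 8993.5 with LPS and 6844 with both, so that the untreated sDCs held more than any group of the other cell types, the nearest being neutrophils with LPS at 7076. The log2 change with LPS was -0.58 in sDCs against 3.06 in mast cells, 3.74 in eosinophils, 4.75 in macrophages and 5.70 in neutrophils, and whether it differs between cell types was not tested. The sDC groups also differed from the rest in genes listed as markers of other cells. Kit was 8800 in untreated and 5718.5 in LPS-treated sDCs with the second mast cell marker, Tpsb2, at 0. Cd4, the only gene of the T cell list with values, went from 2306.5 to 1092 and Klrd1, the NK cell marker, from 1906.5 to 248. Whether the Cd4 RNA came from T cells or from the sDCs themselves cannot be told. In bulk RNA, fewer cells of a type and less RNA per cell cannot be told apart, and the part of other cells in the Nr4a3 values was not tested.

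The other members of the receptor family shared only pieces of this pattern. Nr4a1 was 167 in untreated and 5349.5 in LPS-treated neutrophils (log2 change 4.99) and 2382 with both agents (-1.17 against LPS), close to Nr4a3 in that cell type. In macrophages Nr4a1 went from 174.5 to 302 with LPS (0.79), under the 2-fold line. Nr4a2 was at 352.5 in untreated and 1286.5 in LPS-treated sDCs (1.86), opposite in sign to Nr4a3 there. Of the 2 relatives, LPS raised both at least 2-fold in sDCs (9.04% of all genes) and eosinophils (2.16%). It raised 1 in neutrophils (8.71%) and 0 in macrophages (12.8%) and mast cells (4.76%). IL-10 during LPS lowered both in macrophages (4.62% of all genes), where LPS had not raised them 2-fold. It lowered 1 in neutrophils (3.88%) and 0 in sDCs (2.08%) and mast cells (4.66%). Among 10 further immediate early genes, such as Fos, Junb and Ier3, LPS raised 2 each in macrophages, neutrophils and mast cells, 1 in sDCs and 0 of 9 in eosinophils. The shares of all genes given for the relatives apply here too, and these counts are small beside them. LPS lowered 4 in mast cells (Fos, Klf2, Klf4 and Myc, against 5.46% of all genes) and 2 in sDCs (Fos and Klf2, 11.5%). It lowered 1 in macrophages (Fos, 14.8%), 1 in neutrophils (Klf4, 7.9%) and 0 in eosinophils (0.702%). IL-10 during LPS lowered none of these 10 at least 2-fold in macrophages, neutrophils or sDCs and lowered Fos alone in mast cells (-2.23), where it raised Myc (2.12).

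Cd69, on chromosome 6 (129217342 to 129225387, minus strand), has 1 transcript of 5 exons, and its protein holds leukocytes in tissue by binding the sphingosine 1-phosphate receptor S1pr1. In macrophages it was 72 untreated, 84 with IL-10, 7787 with LPS and 1703.5 with both, a 108.2-fold rise of which 78.9% was lost with IL-10. In neutrophils it was 331, 341.5, 3145 and 1355.5. Mast cells held the highest values, 1977.5, 1613.5, 10725 and 5051, and their LPS level was above that of every other group. In eosinophils Cd69 was 406.5 untreated and 1358.5 with LPS.

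In sDCs Cd69 was 150 untreated, 165.5 with IL-10, 647 with LPS and 466.5 with both, and 72.1% of the LPS level remained with IL-10 (log2 change -0.47). This was the smallest part lost among the members that LPS raised in any cell type. Cd69 is also made by activated T, NK and B cells. The B cell receptor subunit Cd79b was 860.5 in untreated, 813.5 in IL-10-treated, 452 in LPS-treated and 398 in doubly treated sDCs, and between 1155 and 2143.5 in the neutrophil groups. It was between 61.5 and 101 in macrophages, 63.5 and 65.5 in eosinophils and at most 7.5 in mast cells. The part of such cells in the Cd69 values of sDCs and neutrophils was not tested.

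S1pr1 was lower with LPS where Cd69 was higher: 1748 untreated and 347 with LPS in macrophages, 426.5 and 104 in neutrophils and 43.5 and 16 in eosinophils (log2 changes -2.33, -2.03 and -1.39). In sDCs and mast cells its log2 changes were -0.82 and -0.83. IL-10 moved S1pr1 little during LPS (log2 changes between -0.36 and 0.26). S1pr2, the other receptor of this list in the table, stayed under the 2-fold line in all 5 cell types. Of the lectins encoded near Cd69, the close relative Clec2d was 1425 in untreated and 4724 in LPS-treated macrophages, 1669.5 and 3823.5 in neutrophils and 2181 and 7292 in mast cells. With IL-10 and LPS it was 4367.5, 2245.5 and 5526.5, less than 2-fold below LPS in each. Of the 13 lectins other than Cd69 kept in sDCs, LPS raised 0 (9.04% of all genes) and lowered 8 (11.5%) at least 2-fold. In macrophages LPS raised 3 of 12 (Clec2d, Klrk1 and Olr1, against 12.8% of all genes) and lowered 5 (14.8%).

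Tpbg, on chromosome 9 (85735987 to 85740662, plus strand), encodes a surface protein that dampens Wnt signalling and has been tied to surface display of the chemokine receptor Cxcr4. Its 1 transcript in the table shares 104 exon bases with the antisense gene 9330154J02Rik, and where the counting did not use strand, reads there cannot be assigned. In macrophages Tpbg was 30.5 untreated, 42.5 with IL-10, 341.5 with LPS and 168.5 with both. In neutrophils it was 11, 8, 251.5 and 49, and in sDCs 38, 25, 210.5 and 84. Macrophages had the highest LPS level and kept 49.3% of it with IL-10, while neutrophils kept 19.5%. In mast cells Tpbg was listed at 0 untreated, at 0.5 with IL-10, at 20 with LPS and at 1.5 with both, and in eosinophils at 1 and 15.

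Cxcr4 ran against Tpbg: 3909 untreated and 237 with LPS in macrophages, 7770 and 2782 in neutrophils and 7779.5 and 2158 in sDCs (log2 changes -4.04, -1.48 and -1.85). Its log2 change with LPS was -0.37 in mast cells and -0.07 in eosinophils. With IL-10 and LPS it stood at 340.5, 2397 and 3128.5 in macrophages, neutrophils and sDCs, less than 2-fold from LPS. Of the Wnt and Cxcr4 partners kept, LPS raised none in any cell type. It lowered 3 of 6 in macrophages (Cxcr4, Lrp6 and Ctnnb1, against 14.8% of all genes) and 2 of 4 in neutrophils (7.9%). In mast cells it lowered 1 of 5 (5.46%) and in sDCs 2 of 5 (11.5%). In mast cells the Cxcr4 ligand Cxcl12 was 204.5 untreated, 45 with IL-10, 323 with LPS and 18 with both.

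Lad1, on chromosome 1 (137715175 to 137729918, plus strand, 10 exons), encodes a protein of the basement membrane zone of epithelia. In sDCs it was 2815.5 untreated, 1861 with IL-10, 18952 with LPS and 9629.5 with both. In macrophages it was 4, 8, 752 and 127, and in neutrophils 10.5, 4.5, 376.5 and 95. Every sDC group, treated or not, thus lay above every group of the other cell types, and the rise in macrophages was 188-fold from a very low start. In mast cells Lad1 was listed at 0 without LPS, at 50.5 with LPS and at 10 with both, and in eosinophils it went from 1 to 12.5. Per kilobase of transcript, the level in LPS-treated sDCs was 6334.2, the second highest value of the 7 genes in any group after Cd69 in LPS-treated mast cells (6616.3).

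Most genes of the structures around ladinin stayed under the 2-fold line. Of 4 adhesion and basement membrane genes kept in macrophages, LPS raised 1 at least 2-fold (12.8% of all genes), and IL-10 lowered none (4.62%). The 1 raised was the cytoskeletal linker Dst (647.5 untreated, 3162 with LPS and 4210.5 with both). In sDCs 0 of 4 were raised (9.04% of all genes) and 1 was lowered (11.5%) by LPS. Col17a1, the collagen of the same anchoring complexes, was 145 in untreated and 88 in LPS-treated sDCs and listed at 0 in all macrophage, neutrophil and mast cell groups.

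Slc6a12, on chromosome 6 (121293094 to 121315793, plus strand), encodes a carrier that brings betaine into cells as an osmolyte. Mast cells had the highest values in each treatment: 2293.5 untreated, 1102 with IL-10, 7328.5 with LPS and 3862.5 with both. In neutrophils the values were 225.5, 153, 691.5 and 328, in macrophages 34.5, 30, 506.5 and 175.5, and in sDCs 153, 67.5, 315.5 and 149. In sDCs the group with both agents was back at the untreated level. In eosinophils Slc6a12 was 28 untreated and 149.5 with LPS, a 5.34-fold difference.

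With IL-10 and no LPS, Slc6a12 stood at 44.1% of untreated in sDCs and 48% in mast cells, past the 2-fold line, and at 67.8% in neutrophils and 87% in macrophages, short of it. It was the only 1 of the 6 members kept in all 4 cell types to have a lower value of any size in each, and 14.4% of all 5357 genes kept in all 4 did so too, so this share is near the background. In sDCs and mast cells the log2 change with IL-10 alone (-1.17 and -1.06) was about as large as that with IL-10 during LPS (-1.08 and -0.92), and the change during LPS minus that without was 0.09 and 0.13. In macrophages and neutrophils this difference was -1.33 and -0.52, the change being larger during LPS. The 2 contrasts share no group.

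The osmolyte genes kept beside Slc6a12 (Slc5a3, Nfat5 and Slc38a2) did not pass the 2-fold line in any contrast, except that Slc5a3, the inositol carrier, was 334 in untreated and 1720 in LPS-treated sDCs. Among the other Slc6 carriers, LPS raised 4 of 5 in macrophages (12.8% of all genes kept) and 2 of 4 in mast cells (4.76%). It raised 1 of 4 in neutrophils (8.71%), 1 of 4 in eosinophils (2.16%) and 0 of 5 in sDCs (9.04%). In macrophages Slc6a20a (0 untreated, 14 with LPS), Slc6a4 (4 and 36.5) and Slc6a13 (6.5 and 30.5) started from low values. Slc6a9, also raised there, was 90 and 224.5. LPS lowered 1 each in macrophages (14.8%) and sDCs (11.5%). The serotonin transporter Slc6a4 was 470.5 in untreated, 2228.5 in LPS-treated and 620.5 in doubly treated mast cells, and 2461 and 7881.5 in untreated and LPS-treated eosinophils. The GABA carrier Slc6a13, which lies in the same subfamily as Slc6a12, was 810 untreated, 2150 with LPS and 1668 with both in mast cells, a log2 change of -0.37 between the last 2 groups.

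Etnk2, on chromosome 1 (135260149 to 135276913, plus strand), was the lowest of the 7. It was 1 untreated, 0 with IL-10, 86.5 with LPS and 36 with both in sDCs, and 2, 1, 26 and 5 in neutrophils. In macrophages it was listed at 22 with LPS and at 0 in the other 3 groups. Values this low carry little weight, and their log2 changes (5.45 in sDCs and 3.17 in neutrophils with LPS) depend on the pseudocount. All mast cell and eosinophil groups were listed at 0. Its sister gene Etnk1, which encodes the other ethanolamine kinase, was 1506 in untreated and 5547.5 in LPS-treated macrophages and 5208.5 and 11229 in sDCs. With IL-10 and LPS Etnk1 was 4776.5 and 10905, so IL-10 changed it by -0.22 and -0.04 on the log2 scale. Of 8 other genes of the ethanolamine and choline branches, IL-10 during LPS lowered none at least 2-fold in any of the 4 cell types. Among all genes it lowered between 2.08% (sDCs) and 4.66% (mast cells). LPS raised Etnk1 in macrophages and sDCs and Pcyt1a, a rate-setting enzyme of the choline branch, in mast cells (9632 untreated, 37188.5 with LPS). LPS lowered 2 of the 8 in macrophages (14.8% of all genes), Pcyt1a (6526 to 1721) and its sister gene Pcyt1b (37.5 to 4). It lowered Pcyt1a in sDCs (7610.5 to 2990.5) and Pcyt1b in mast cells (589.5 to 248), so the direction of Pcyt1a differed between cell types.

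Ppfia3, on chromosome 7 (52594496 to 52622389, minus strand), is represented in the table by 2 short non-coding transcripts of 3 exons each at the 3′ end of the gene, 1160 and 1060 bases long, and the coding transcripts were not analysed here. In macrophages the sum was 45 untreated, 19.5 with IL-10, 883.5 with LPS and 212 with both. In sDCs it was 3, 4.5, 311 and 64, in neutrophils 3, 2, 87 and 13 and in mast cells 3, 0, 35 and 4. With IL-10 between 11.4% (mast cells) and 24% (macrophages) of the LPS level was left. In eosinophils Ppfia3 was 53 untreated and 45 with LPS, a log2 change of -0.23, though its untreated level there was the highest of the 5 cell types. That eosinophils differ from the rest was not tested. Its relative Ppfia4 ran in reverse: it was 436 untreated and 28 with LPS in macrophages, 180.5 and 42 in neutrophils and 655 and 39 in sDCs, and IL-10 changed it by less than 2-fold during LPS in these cells. Ppfibp1, which encodes a liprin-beta, passed the 2-fold line with LPS in sDCs only (571 untreated, 1288 with LPS), and in mast cells it was 615 untreated, 1693.5 with IL-10, 535 with LPS and 1259 with both.

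**Figure D3:**
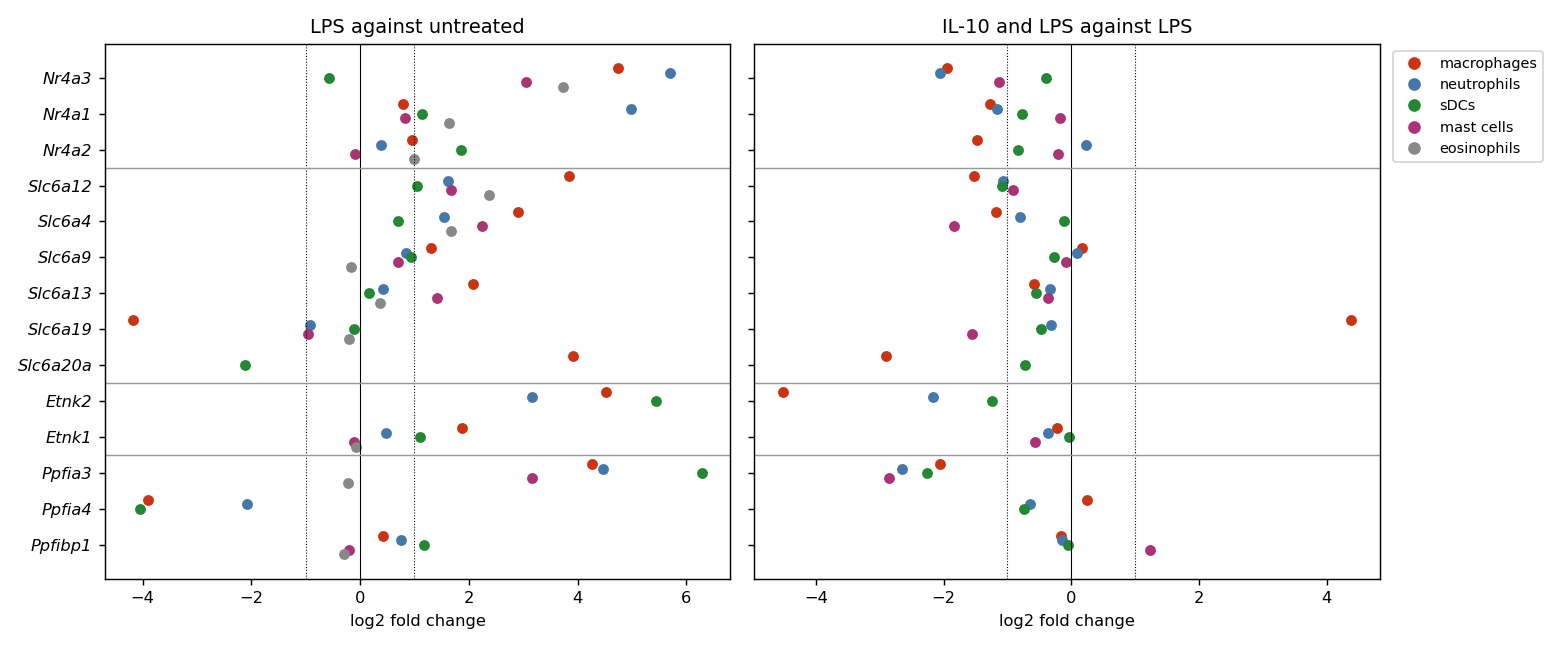
Log2 fold changes of Nr4a3, Slc6a12, Etnk2 and Ppfia3 and of the members of their families in the table, with LPS against untreated (left) and IL-10 and LPS against LPS (right). Each point is 1 cell type in which the gene was kept, dotted lines mark 2-fold. Ppfia3 lies at positive and Ppfia4 at negative LPS changes in macrophages, neutrophils and sDCs.

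The response to IL-10 without LPS was smaller than that during LPS for most members. Since the members were chosen for their fall during LPS, this difference describes the choice. Low untreated values, such as those of Etnk2, also left little room to fall. At least 2-fold lower with IL-10 alone were Ppfia3 in macrophages (1 of 7, against 2.18% of all genes) and Lad1 in neutrophils (1 of 7, against 0.941%). In mast cells they were Ppfia3 and Slc6a12 (2 of 6, against 2.79%), and in sDCs Slc6a12 and Etnk2 (2 of 7, against 0.843%). No member was 2-fold higher, where 2.34% of all genes were in macrophages, 1.26% in neutrophils, 2.28% in mast cells and 1.6% in sDCs. Of these, Etnk2 in sDCs (1 and 0), Ppfia3 in mast cells (3 and 0) and Lad1 in neutrophils (10.5 and 4.5) rest on values near or below the minimum of 10, and none of these 3 was called with a pseudocount of 10, nor was Ppfia3 in macrophages. The median log2 change of the members with IL-10 alone was 0.00 in macrophages, -0.42 in neutrophils, -0.15 in mast cells and -0.58 in sDCs. This contrast shares the untreated groups with the LPS contrast. Cd69 and Nr4a3 stayed within 0.29 of 0 in all 4 cell types.

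**Figure D4:**
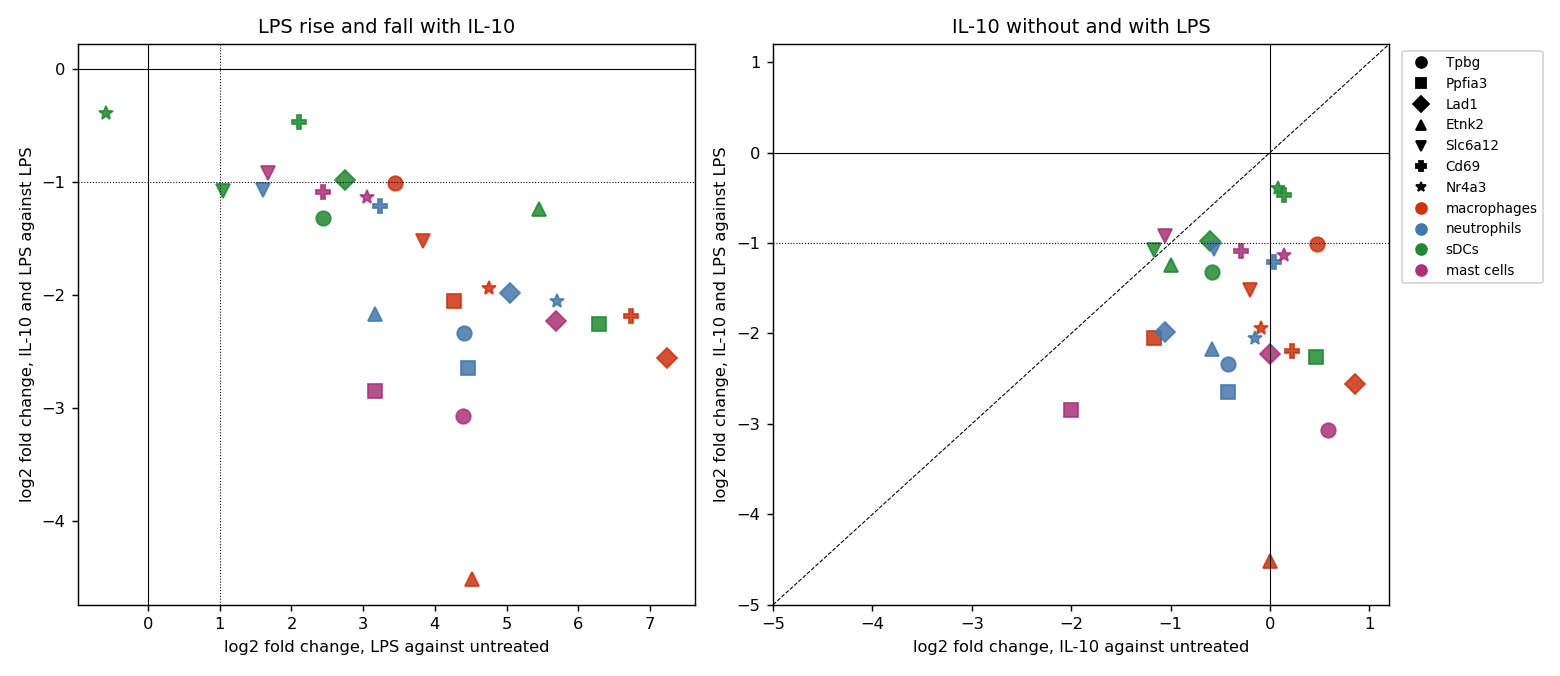
Log2 fold changes of the 7 genes, 1 point per gene (shape) and cell type (colour), for IL-10 and LPS against LPS (y axis) over LPS against untreated (left) and over IL-10 against untreated (right). Dotted lines mark 2-fold and the dashed line equal change without and with LPS. Slc6a12 in sDCs and mast cells lies next to the dashed line, and Nr4a3 in sDCs is the point with a negative LPS change. Etnk2 in macrophages, the lowest point, was listed at 0 in 3 groups, so its place depends on the pseudocount.

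Single transcripts of a gene did not always follow their sum. Of the 7 Slc6a12 transcripts, the coding transcript Slc6a12-002 (ENSMUST00000032200, 15 exons) held 80.9% of the sum over all groups. In macrophages, however, it held 262.5 of 506.5 with LPS, and the second coding transcript, Slc6a12-001, went from 1.5 to 131.5 with LPS and to 8 with both. The transcripts Slc6a12-009 and Slc6a12-008, annotated for nonsense-mediated decay and sharing their ends, traded places: LPS alone gave 53.5 and 0, and both agents gave 0 and 42.5. Reads that fit both were divided by the authors' estimate, so the pair is uncertain while the sum is not affected. In sDCs Slc6a12-002 alone went from 125 to 218 with LPS and to 121.5 with both, under 2-fold in each step.

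Of the Nr4a3 transcripts, the coding Nr4a3-001 and Nr4a3-004 held 49.5% and 49.7% of the sum over all groups. In LPS-treated neutrophils they were nearly equal (3488.5 and 3492), and with both agents they were 1152.5 and 529. In untreated sDCs they were 7648 and 5665.5 and with LPS 3808 and 5095, so that the former passed the 2-fold line downwards and the latter did not. In mast cells Nr4a3-001 went from 68 with LPS to 18 with both, while Nr4a3-004 went from 9.5 to 15. Both Ppfia3 transcripts were lower with IL-10 during LPS in macrophages (626 to 171 and 257.5 to 41) and sDCs (233 to 59 and 78 to 5).

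**Figure D5:**
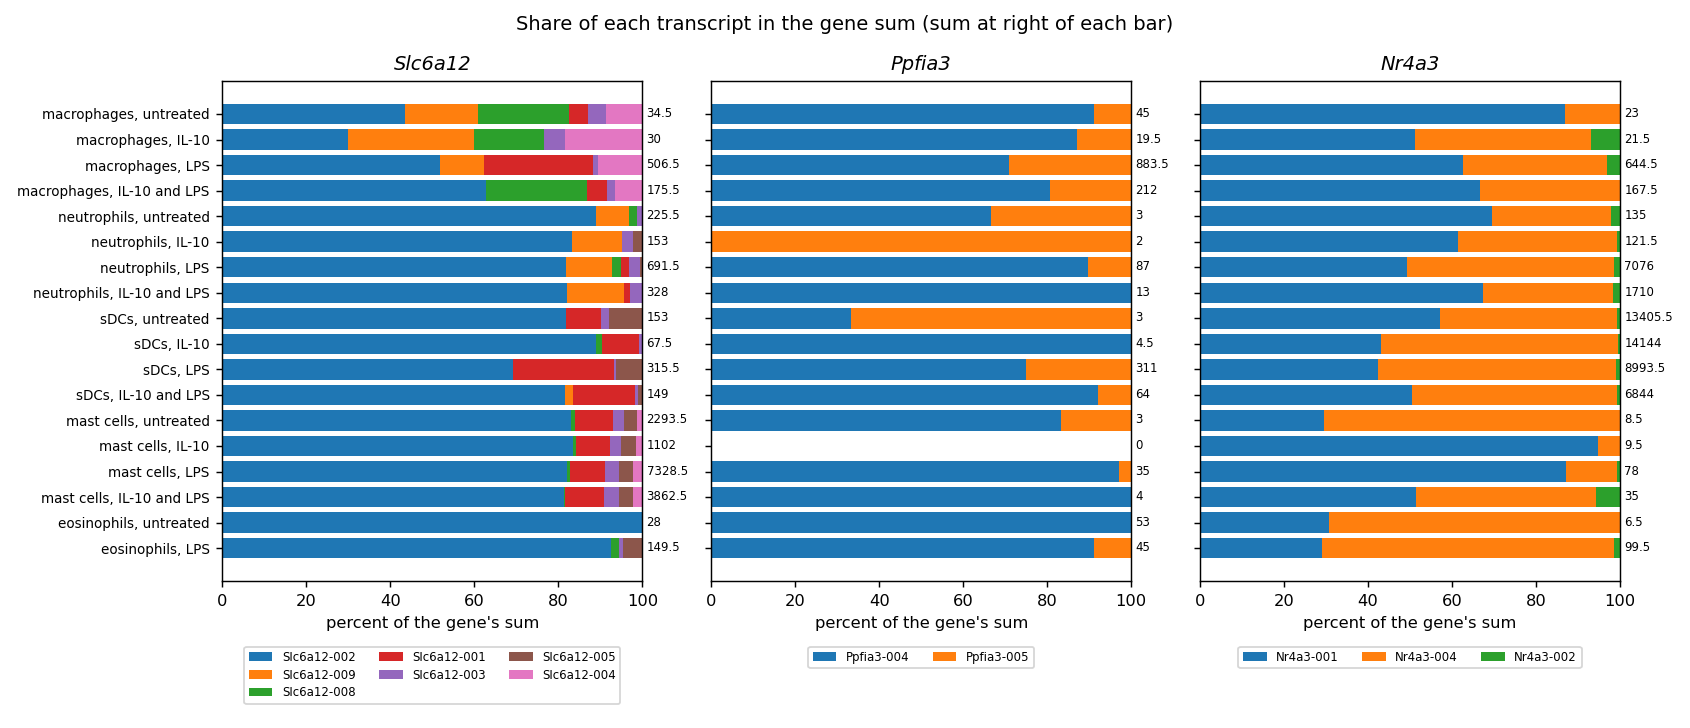
Share of each transcript in the sum of Slc6a12, Ppfia3 and Nr4a3, in percent, for the 18 groups. The number at the right of each bar is the sum, and the empty bar is a sum of 0. In macrophages the shares of the Slc6a12 transcripts change with treatment, and in mast cells they hardly do although the sum goes from 1102 to 7328.5.

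Compared per kilobase of transcript, the order of the 7 genes differed between cell types. With LPS, Cd69 was highest in macrophages (4803.8), neutrophils (1940.2), mast cells (6616.3) and eosinophils (838.1), and Lad1 was highest in sDCs (6334.2). The next in order were Ppfia3 in macrophages (782.6), Nr4a3 in neutrophils (1405.6) and in sDCs (1772.2), and Slc6a12 in mast cells (3726.7) and eosinophils (67). Ppfia3 was divided by the lengths of its 2 short non-coding transcripts, 1160 and 1060 bases, which raises its value per kilobase. By sum it was 883.5 in LPS-treated macrophages, close to Lad1 at 752. Etnk2 was the lowest with LPS in all 5 cell types, at 37.7 or less. By rank of the LPS rise among all genes kept, Lad1 ranked 14 of 6064 in macrophages, and Nr4a3 ranked 21 of 5949 in neutrophils and 14 of 5559 in eosinophils. Ppfia3 ranked 18 of 6050 in sDCs. By rank of the fall with IL-10 among the 273 genes raised by LPS in mast cells, Tpbg ranked 3 and Ppfia3 ranked 5. These 2 ranks rest on low values: Tpbg was 20 with LPS and 1.5 with both, and Ppfia3 was 35 and 4. Neither was kept in mast cells with a minimum of 50. The LPS and IL-10 contrasts chose the genes, so all these ranks describe the choice.

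The genes with the most similar course were sought by Pearson's r of the log2 values, centred within each cell type, over the 18 groups and among 6248 genes. The r describes group means that share cell types, controls and the LPS step. Cd69 was most like Nfkb1 (r = 0.98), Tank (0.97) and Tnf (0.96). Lad1 was most like Icam1 (0.97), Apol7c (0.96) and Psd (0.95), and Tpbg most like Ccl22 (0.96), Lad1 (0.95) and Il12b (0.94). For Ppfia3 the closest were I830012O16Rik (0.96), Pttg1 (0.95) and Ddx58 (0.94), and for Nr4a3 they were Olr1 (0.96), Mllt6 (0.95) and Rel (0.94). Olr1, a scavenger receptor of the lectin cluster that holds Cd69, shared with Nr4a3 the lower value with LPS in sDCs (344 untreated, 201 with LPS) beside higher values in macrophages, neutrophils and eosinophils. For Slc6a12 the closest were Rassf4 (0.95), Slc6a4 (0.94) and Slc39a4 (0.93), and for Etnk2 they were Dscaml1 (0.95), Tbc1d1 (0.92) and Keap1 (0.92). Between members, r was highest for Lad1 with Tpbg and with Cd69 (0.95 each) and lowest for Etnk2 with Nr4a3 (0.41).

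Known LPS-induced genes set the scale. Of 13 such genes in the table, among them Tnf, Il12b, Nos2 and Ptgs2, LPS raised 13 at least 2-fold in each cell type but eosinophils, where it raised 6 of the 9 kept. IL-10 during LPS lowered 11 of these in neutrophils (3.88% of all genes), 9 in macrophages (4.62%), 6 in mast cells (4.66%) and 5 in sDCs (2.08%). It raised 1 in macrophages (3.18%) and 2 each in neutrophils (3.06%), mast cells (2.88%) and sDCs (2.61%). Nos2 was among those raised in macrophages, neutrophils and sDCs. It was 6709 with LPS and 35477.5 with both agents in macrophages, 349.5 and 2797 in neutrophils and 187.5 and 430 in sDCs. For the cytokine subunit Il12b the log2 change was -7.20 in neutrophils and -3.11 in sDCs, beyond that of every member. It was -4.00 in macrophages, beyond every member save Etnk2, which was listed at 0 with both agents. In mast cells it was -2.72, less than that of Tpbg (-3.07) and Ppfia3 (-2.85). These mast cell values were low: Il12b was 58.5 with LPS and 8 with both, Tpbg 20 and 1.5 and Ppfia3 35 and 4.

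Few marker genes are in the table. The macrophage markers (Emr1, Cd68, Mrc1 and Itgam) summed to between 116272 and 249075 in macrophages, but also to 144478 in untreated neutrophils, of which Itgam made 136889, and to 73422 and 74097.5 in eosinophils, so their sum did not set macrophages apart. Cd68 did, with at least 77545.5 in macrophages and at most 4387.5 elsewhere. The neutrophil markers (Ly6g, Cxcr2 and Mmp8) summed to 175344 in untreated and 20633.5 in LPS-treated neutrophils, Kit and Tpsb2 to at least 273528 in mast cells and Ccr3 and Epx to at least 221356 in eosinophils. The dendritic cell markers (Itgax, Xcr1 and Clec9a) summed to 4508.5 in untreated and 1069.5 in LPS-treated sDCs and to 13926 in untreated macrophages, so Itgax did not set the sDCs apart, while Xcr1 was at 185.5 to 205.5 in the sDC groups and at most 63.5 elsewhere. Clec9a was 243.5 in untreated and 49.5 in LPS-treated sDCs, and up to 103.5 in neutrophils. Neutrophil groups also held the eosinophil markers at sums of 19648 to 23628. The part of other cells in the values of the 7 genes was not tested.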

How the data were processed

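RNA-seq libraries of 5 myeloid cell types in 18 groups (36 of the series' 37 samples) were summarised by the authors in 1 table of transcripts. The deposited values are a score: tags per transcript estimated with RSEM 1.2.1 and Bowtie 0.12.9 on Ensembl transcripts (mm9), normalized for GC content with EDASeq and averaged over 2 replicates. The highest value is 185338 in each of the 18 columns, and all values are multiples of 0.5. Whether the counting used strand was not stated. The depth of each library is unknown from the table, so zeros are called listed at 0, with no interval or limit, and carry no fold. The copy held 17015 complete lines and 1 broken line at its end, so it covers part of the transcriptome. Of its lines, 22 (0.129%) without a gene name were left out.

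Values were handled with Python 3.11.15, numpy 2.4.6 and pandas 2.3.3 and drawn with matplotlib 3.10.9. A gene's value was the sum of its transcripts. Genes were kept per cell type where a group value reached 10, and log2 fold changes were taken on log2(value + 1). A difference of at least 2-fold was called, and AIR genes were raised by LPS and lowered with IL-10 and LPS against LPS. No test, SD or replicate check was possible on group means. Likeness was Pearson's r of log2 values centred within cell type, among genes that reached 50 in some group. Promoter windows came from NCBIM37 with the GENCODE annotation of that build at the start of the coding transcript with a consensus coding sequence. Values per kilobase were divided by the annotated transcript length. The calculation of the calls was checked on simulated data with set changes. Low values were not simulated, so this check does not bear on the reliability of calls on low values.

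The members and lists were chosen with earlier results of these data known. Named genes were the 7 members, the 3 genes most like each, and, from fixed lists (liprins, ethanolamine and choline enzymes, Slc6 carriers, osmolyte handling, Nr4a receptors, immediate early genes, lectins near Cd69, sphingosine 1-phosphate receptors, adhesion genes, Wnt and Cxcr4 partners, known LPS genes and cell markers), the closest relatives and those past 2-fold. Values of genes that did not pass are given beside them as chosen after their values were seen. Alternatives were pseudocounts of 0.5 and 10, no minimum or a minimum of 50, the highest transcript in place of the sum, a fold of 1.5 and centring on the median of all genes. The sample with no column in the table, activated CD4+ T cells, was not used here. One marker gene is not reported here.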

Additional observations from a re-analysis of the deposited data

Results flagged for a closer look

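Nr4a3 differed between cell types in its course with LPS. Its log2 change was -0.58 in sDCs (13405.5 untreated, 8993.5 with LPS) and between 3.06 and 5.70 in the other 4 cell types, and the difference was not tested, since the table has 1 mean per group.

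Ppfia3 had a log2 change with LPS of -0.23 in eosinophils (53 untreated, 45 with LPS) and between 3.17 and 6.29 in the other 4 cell types. This difference was not tested either, and the eosinophil change was below 2-fold.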

How the results depend on the processing

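No paired analysis was possible because the table holds 1 mean per group, and for the same reason no replicate could be left out. Without a minimum, all 17 counts of members called were identical, and with a pseudocount of 0.5 or centring on the median of all genes they stayed within 1.5 times. Centring brought Lad1 in sDCs past the 2-fold line for IL-10 during LPS. With a pseudocount of 10 the counts changed by IL-10 alone were 0 in both macrophages and neutrophils and 1 each in sDCs and mast cells, and Tpbg in macrophages and Nr4a3 in mast cells were no longer called lowered by IL-10 during LPS, nor Slc6a12 in sDCs called raised by LPS. With a minimum of 50, fewer members were kept: 3 in mast cells were lowered by IL-10 during LPS, 3 were AIR genes, 1 was changed by IL-10 alone, and 3 were raised by LPS in eosinophils. With a fold of 1.5, IL-10 alone changed 2 in macrophages, 2 in neutrophils and 4 in sDCs. With the highest transcript in place of the sum it changed 2 in macrophages and 2 in neutrophils, Slc6a12 in sDCs was called in neither step, and Nr4a3 in mast cells reversed for IL-10 during LPS, with a log2 change of 0.61, since its transcript Nr4a3-004 was higher with IL-10 while the sum was lower.

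Of the 3 genes most like each member, 3 or 2 were shared with a pseudocount of 0.5. With a pseudocount of 10, 1 was shared for Tpbg, Ppfia3 and Etnk2 and 0 for Lad1. With the highest transcript, 1 was shared for Ppfia3, Slc6a12 and Cd69 and 0 for Nr4a3, and without centring 1 was shared for Lad1 and 0 for the other members. The likeness thus depends on these choices.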

Other observations

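Among relatives of the 7 genes, some followed IL-10 in ways the members did not. In mast cells Ppfibp1 was 615 untreated and 1693.5 with IL-10 alone, and 535 with LPS and 1259 with both, so that IL-10 went with a higher value in both settings. Il10 itself was among the 13 known LPS-induced genes, and in mast cells it was 1.5 untreated, 159.5 with IL-10, 5 with LPS and 208.5 with both, while in neutrophils it was 1601 with LPS and 221 with both. Klrb1b, a lectin encoded near Cd69, was 39 in untreated and 204 in LPS-treated eosinophils, where the other lectin past 2-fold was Olr1 (2531.5 and 5751.5). These values are group means with no replicate check.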
